A study of Canis lupus familiaris with 12 samples.

Results

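The short exonic circRNAs of the dog atrium were the 430 circRNAs, among 15990 in the table, that were annotated as exonic, had a predicted length of 200 nucleotides or less and were listed at 0 reads in at least 1 of 6 libraries. They were drawn from 11060 exonic circRNAs, of which 444 measured 200 nucleotides or less. Left out of these were 5 of the unnamed gene ENSCAFG00000014025, which the choice excluded, and 9 others with reads in every library. The members were thus chosen by their measured reads (the value of 0) as well as by annotation and length, so how often and how strongly the 430 were listed is given as a description. Their positions, their neighbours on the host gene and the mRNA of the host were not used in the choice.

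The study compared the atria of mongrel dogs of a control group with those of a pacing group, in which an electrode in the right atrium stimulated the heart continuously at a rapid rate. The control dogs had the same operation and a pacemaker that gave no stimulation, so surgery and implant were common to both groups. All dogs were described as healthy and of either sex, and their age was not given in the sources used here. The tables hold 3 libraries named C1, C2 and C4, taken here as control by their names, and 3 named P1, P2 and P3, taken as pacing. The sample labels instead title the paced samples C4, C5 and C6, so the values with C4 counted as pacing are given where they change a result. That setting sets C1 and C2 against C4, P1, P2 and P3, which is the grouping of neither the labels nor the library names.

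A circRNA is made when the spliceosome joins the end of an exon back to the start of the same exon or of an exon upstream, which leaves a closed loop without a cap or a poly(A) tail. Such loops resist exonucleases and can outlast the mRNA of their gene, which is called the host. Most exonic circles hold a few exons, and in human cells an exon that circularises alone is known to be longer than most. In heart muscle, long sarcomere and calcium channel genes are well known sources of circRNAs.

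Each value is a number of reads across the back-splice junction. No value of 1 occurred in the table, so a circRNA listed at 0 had 0 or 1 read in that library. The libraries held 22987 to 41299 junction reads, with the 3 highest totals in the pacing group. The 430 short circRNAs took 2198 reads in all, with a median of 2 and a highest sum of 34 per circRNA over the 6 libraries. Only 48 of them had 10 or more reads summed, and 8 reached a mean of 5 reads per library. Intervals given for a share of reads cover counting error only.

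The tissue markers set library C4 apart. The summed mRNA level of the 4 atrial cardiomyocyte markers found (of 6 sought) was 29.0 FPKM (fragments scaled to transcript length and depth) in C4, while the other 5 libraries lay between 2663 and 12994 FPKM, and that of 3 ventricular markers (of 4 sought) was 5732 FPKM in C4 against 5.20 to 188 FPKM elsewhere. The label atrial was therefore not borne out by the markers of C4. The 3 adipocyte markers found (of 4 sought) summed to 492 FPKM in C1, 209 FPKM in C2 and at most 6.85 FPKM in the others. Since these are bulk samples, fewer cells of a type and less RNA per cell cannot be told apart, and the part of these differences in the results below was not tested.

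The median predicted length was 176 nucleotides, and the shortest circle measured 82. The number of circRNAs rose steeply toward the limit, from 19 at 140 to 149 nucleotides to 53 at 150 to 159 nucleotides and 97 at 180 to 189 nucleotides. The step near 150 nucleotides was larger in circRNAs whose length equals the span on the genome (6 against 32) than in the others (13 against 21). The sample labels give sequencing runs of 150 cycles, and 64 of the 430 were no longer than that. The part of the read length in this step was not tested.

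**Figure D1:**
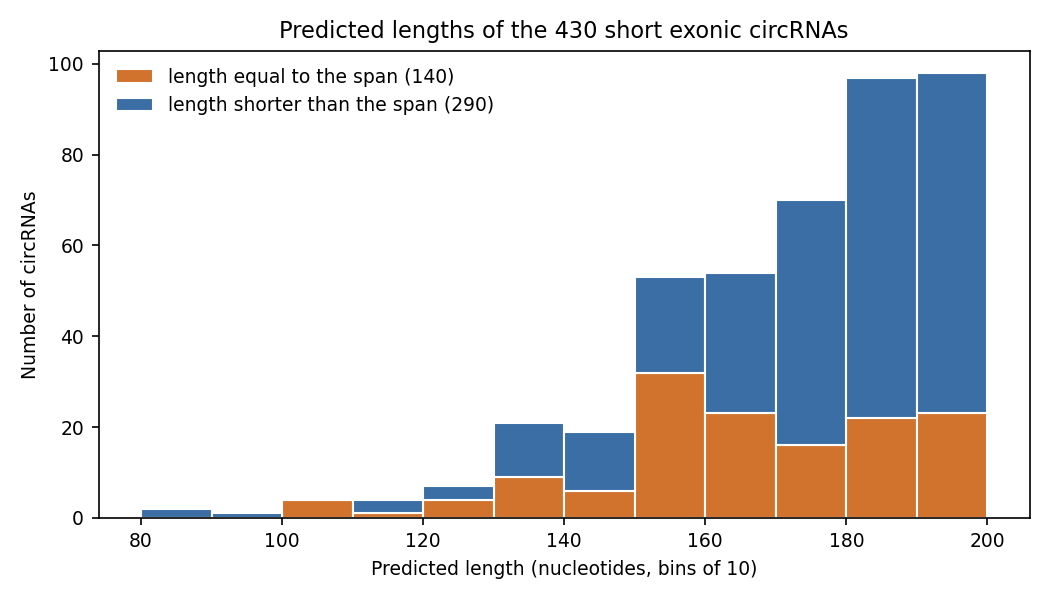
Stacked histogram of the predicted length (x axis, nucleotides, bins of 10, the last one including 200) of the 430 short exonic circRNAs (y axis, number). Orange marks the 140 whose length equals their span and blue the 290 whose length is shorter than their span, and the bars step from 19 at 140 to 149 nucleotides to 53 at 150 to 159 nucleotides.

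For 140 of the 430 (32.6%) the predicted length equalled the distance between the junction ends, so no intron was counted out and the circle lay within a single exon. Among the 10121 longer exonic circRNAs chosen under the same conditions this held for 3.40%. The share of such circles was 49.0% at 126 to 150 nucleotides, 40.7% at 151 to 175 and 23.1% at 176 to 200, and then 8.50% at 201 to 300 and 2.24% at 301 to 500 nucleotides.

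The other 290 spanned at least 1 intron, with a median span of 1953 bases on canFam3. Their spans reached far in a few hosts. A circle of DLC1 joined exons 88795 bases apart into a predicted 175 nucleotides (chr16:36737322-36826116) and had 2 reads in P1 only. A circle of BICC1, an RNA-binding protein, was predicted at 117 nucleotides over 67523 bases (chr4:10825767-10893289) and had 4, 0 and 2 reads in C1, C2 and C4 and 3, 4 and 2 reads in P1, P2 and P3. It was the only exonic circRNA of its host and was at 0 in a single library. Only junction reads were counted, so removal of the introns inside a circle was predicted and not measured. Of the 290, 88 spanned fewer than 1000 bases and 33 more than 10000.

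Circles within an exon were listed less widely. They averaged 3.42 reads summed over the libraries, 82.9% of them had reads in 1 library and 5% in 3 or more. Circles that spanned an intron averaged 5.93 reads, 65.9% of them had reads in 1 library and 18.3% in 3 or more. These counts describe the values that the choice used, so no test was made of them.

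**Figure D2:**
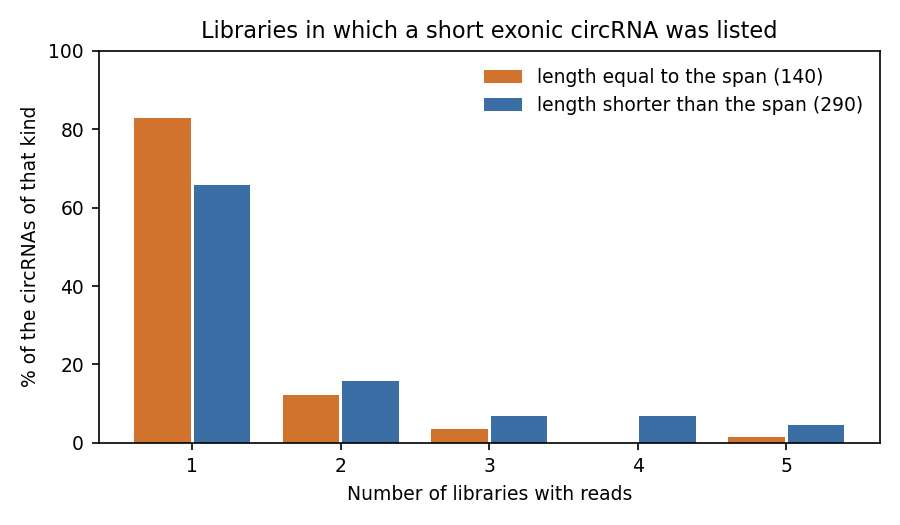
Share of the short exonic circRNAs (y axis, percent of each kind) by the number of libraries in which they had reads (x axis, 1 to 5). Circles within an exon (orange, 140) stood at 82.9% in 1 library and circles over an intron (blue, 290) at 65.9%.

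Over all 430, 307 (71.4%) had reads in a single library, 63 in 2, 25 in 3, 20 in 4 and 15 in 5 libraries. Among the longer exonic circRNAs 67.6% were listed in a single library. P3 held the most circRNAs listed nowhere else (75), followed by C4 (54), P2 (50) and P1 (48), with 40 each in C1 and C2. The mean number of reads of a listed circRNA was lower for the short ones than for the longer ones in each of the 6 libraries, at 3.28 ± 0.316 against 3.60 ± 0.381 reads (mean ± SD over libraries, n = 6), a description for the same reason.

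The members lay on all 38 autosomes and on X, with 204 on the plus strand and 226 on the minus strand. Chromosome 7 held the most, 31, which is 6.61% of the exonic circRNAs with a value of 0 on that chromosome, against 4.08% over the genome. Chromosomes 1 and 2 followed with 25 and 24, or 4.39% and 4.55%. A further 1 lay on an unplaced scaffold. None of the 15990 circRNAs carried a circBase identifier.

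The 10 members with the most reads had 29 to 34 reads summed and came from hosts of unlike function. MTUS2, a microtubule-associated protein, gave a circle of 180 nucleotides (chr25:10381143-10384596) with 0, 2 and 6 reads in C1, C2 and C4 and 2, 0 and 24 reads in P1, P2 and P3. Most of its 34 reads came from P3, and the groups overlapped. It was the only exonic circRNA of MTUS2. NCOA4, the receptor that delivers ferritin to autophagy, gave a circle of 199 nucleotides (chr28:1807049-1807780) with 3, 0 and 2 reads in the control group and 4, 14 and 11 reads in the pacing group. All pacing libraries were above all control libraries in raw reads, with P1 next to C1.

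ARF4, a small GTPase of Golgi and endosome traffic, gave a circle of 191 nucleotides (chr20:32859852-32860478) with 4, 6 and 6 reads in C1, C2 and C4 and 3, 0 and 14 reads in P1, P2 and P3. RAB31, another small GTPase that works between the Golgi and endosomes, gave a circle of 162 nucleotides (chr7:75735346-75743939) with 2, 4 and 2 control reads and 0, 16 and 8 pacing reads. TBC1D15, which switches off the GTPase Rab7, gave a circle of 174 nucleotides (chr10:13382041-13382819) with 2, 6 and 11 control reads and 6, 4 and 0 pacing reads. In each of these 3 a pacing library was at 0, P2, P1 and P3 in turn, and the groups overlapped.

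RFWD2, a ubiquitin ligase, gave a circle of 197 nucleotides (chr7:23362438-23363321) with 3, 0 and 4 control reads and 12, 2 and 10 pacing reads. TP53BP2, a binding partner of p53, also gave 197 nucleotides (chr7:40302978-40306095), with 4, 2 and 6 control reads and 16, 0 and 2 pacing reads. Both were highest in P1. TRNAU1AP, which binds the selenocysteine tRNA, gave a circle of 153 nucleotides (chr2:71934259-71935024) with 11, 4 and 5 control reads and 0, 7 and 3 pacing reads, and it was the only exonic circRNA of its host. SLC35D2, a nucleotide sugar transporter, gave a circle of 141 nucleotides (chr1:70511699-70512734) with 0, 6 and 4 control reads and 3, 5 and 11 pacing reads. The last of the 10 lay within a single exon, a circle of 154 nucleotides at the locus named EIF4EBP3 (chr2:35644124-35644277) with 7, 0 and 4 control reads and 4, 3 and 12 pacing reads. The groups overlapped in all of the 10 but NCOA4. Of the 10, 9 were listed in 5 libraries, and MTUS2 in 4.

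**Figure D3:**
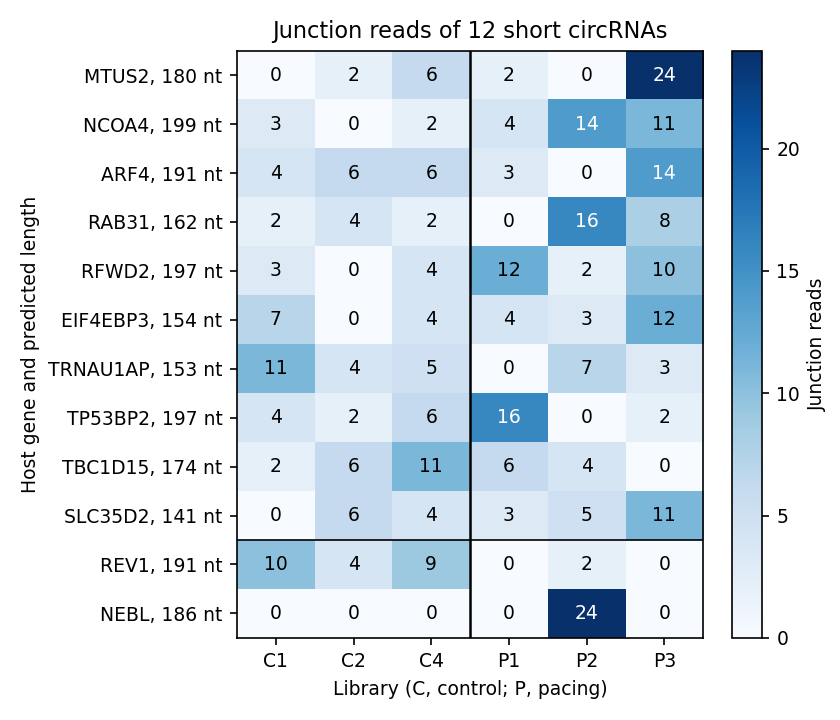
Junction reads (numbers and colour) of the 10 short circRNAs with the most reads and, under the horizontal line, of the 2 called between groups, in each control (C) and pacing (P) library. Values run from 0 to 24, the highest being MTUS2 in P3 and NEBL in P2.

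The shortest member came from UBE2G2, a ubiquitin-conjugating enzyme, at 82 nucleotides over a span of 172 bases (chr31:38450873-38451044). It had 0, 0 and 2 reads in C1, C2 and C4 and 0, 4 and 6 reads in P1, P2 and P3. It was also the only member over an intron whose whole span was under 200 bases. A longer circle of UBE2G2 with the same end, of 342 nucleotides, had 5 reads, all in P2. Next came VPS13A, a lipid transfer protein, at 87 nucleotides (chr1:81406854-81409106) with 2 reads in C4 only, and the unnamed gene ENSCAFG00000008439 at 94 nucleotides (chr28:9326550-9329164) with 2 reads in C2 and 3 in P2.

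At the length limit, 7 members measured exactly 200 nucleotides, with sums of 2 to 12 reads, and 15 circRNAs just outside measured 201, with 2 to 22 reads. Inside, DBT, a subunit of branched-chain ketoacid dehydrogenase, had 12 reads, B3GLCT, a glucosyltransferase, 11 and RCL1, which acts in ribosomal RNA processing, 7. Outside, ENSCAFG00000034862 had 22, MRPL33, a mitochondrial ribosomal protein, 11 and RNF144B, a ubiquitin ligase, 10. At the other limit, 15 members were at 0 in a single library, with sums of 11 to 34 reads, and the 9 short circRNAs with reads in every library had 25 to 116. The highest of these 9 was a circle of USP3, a deubiquitinase, with 17, 16 and 20 reads in C1, C2 and C4 and 16, 14 and 33 reads in P1, P2 and P3. ENSCAFG00000007808 followed with 94 reads and TRAPPC6B, a part of a vesicle tethering complex, with 81.

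The members came from 401 hosts, of which 373 gave 1, 27 gave 2 and 1 gave 3. The host with 3 was ENSCAFG00000023562 on X, where circles of 150, 151 and 190 nucleotides, each within an exon, had 2 reads in C4, 4 in C1 and 2 in P2. These were 3 of 23 exonic circRNAs of that gene. No member lay inside another member. ACBD5, a peroxisome membrane protein, gave a circle of 194 nucleotides with 0, 9 and 9 control reads and 4, 4 and 2 pacing reads, and another of 155 nucleotides with 4 reads in P3. ATL3, an atlastin that shapes the endoplasmic reticulum, gave circles of 185 and 156 nucleotides with 22 and 6 reads. MDM4, an inhibitor of p53, gave circles of 188 and 190 nucleotides with 20 and 2 reads, the first with 4, 0 and 0 control reads and 7, 6 and 3 pacing reads.

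The 2 members of RBPMS, an RNA-binding protein of muscle, framed a longer circle. The first, of 151 nucleotides (chr16:33852450-33852600), shared its start with a circle of 331 nucleotides (chr16:33852450-33886185), and the other, of 180 nucleotides (chr16:33881788-33886185), shared its end with it. The predicted lengths of the short pair add up to that of the longer circle. The longer circle had 6, 10 and 10 control reads and 10, 2 and 20 pacing reads. The first short one had 4 reads in C1 and 2 in P1. The other had 2, 0 and 0 control reads and 3, 3 and 4 pacing reads. All its pacing libraries lay above all control libraries in raw reads. Scaled to the total junction reads of each library, C1 lay above P2 and the groups overlapped.

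Of the 430, 183 shared 1 or both ends with another exonic circRNA, 18 of them on both sides, and 247 shared none. In every case of a shared end the partner was longer, with a median of 497 nucleotides over 311 pairs. The short circle had more reads than all its partners in 45 of the 183, as many as the best in 25 and fewer in 113. ARF4 was the clearest case, with 33 reads against 2 reads of a circle of 389 nucleotides with the same start. SLC35D2 had 29 against 2, NCOA4 34 against 3, RAB31 32 against 8 and TP53BP2 30 against 5 for its best partner. TBC1D15 was close to level, with 29 reads against 25 of a circle of 313 nucleotides that had 3, 2 and 4 control reads and 7, 7 and 2 pacing reads. At the other end MAPK8, the stress kinase JNK1, had 6 reads in its circle of 198 nucleotides (4 in P2 and 2 in P3) and 360 in a circle of 499 nucleotides with the same end. QKI, an RNA-binding protein known from human cells to promote circle formation, had 10 reads at 143 nucleotides and 223 in a circle of 404 nucleotides with the same start.

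Neighbours on the host gene were compared within libraries. In each library, the share of listed members with no shared end was compared with that of the listed longer exonic circRNAs. It was 54.0% ± 3.78 for the short and 31.9% ± 1.68 for the longer circRNAs (mean ± SD, n = 6 libraries), higher in 6 of 6 libraries (exact paired permutation test, 2-sided, p = 0.0312, the smallest that 6 pairs allow, adjusted p = 0.0521 over 5 measures). Among hosts with 2 or more exonic circRNAs it was 37.4% ± 5.90 against 21.7% ± 1.05, again higher in 6 of 6 (exact p = 0.0312, adjusted p = 0.0521). The share that was the only exonic circRNA of the host was 26.4% ± 3.38 against 13.1% ± 1.50, higher in 6 of 6 (exact p = 0.0312, adjusted p = 0.0521). None of these passed an adjusted threshold of 0.05, which 3 measures at the smallest p among 5 cannot reach with 6 libraries. Neighbours were sought among the exonic circRNAs of all 6 libraries together, so a partner need not be listed in the library compared. A circRNA listed in several libraries also counts in each of them. For both reasons the libraries are not fully independent.

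**Figure D4:**
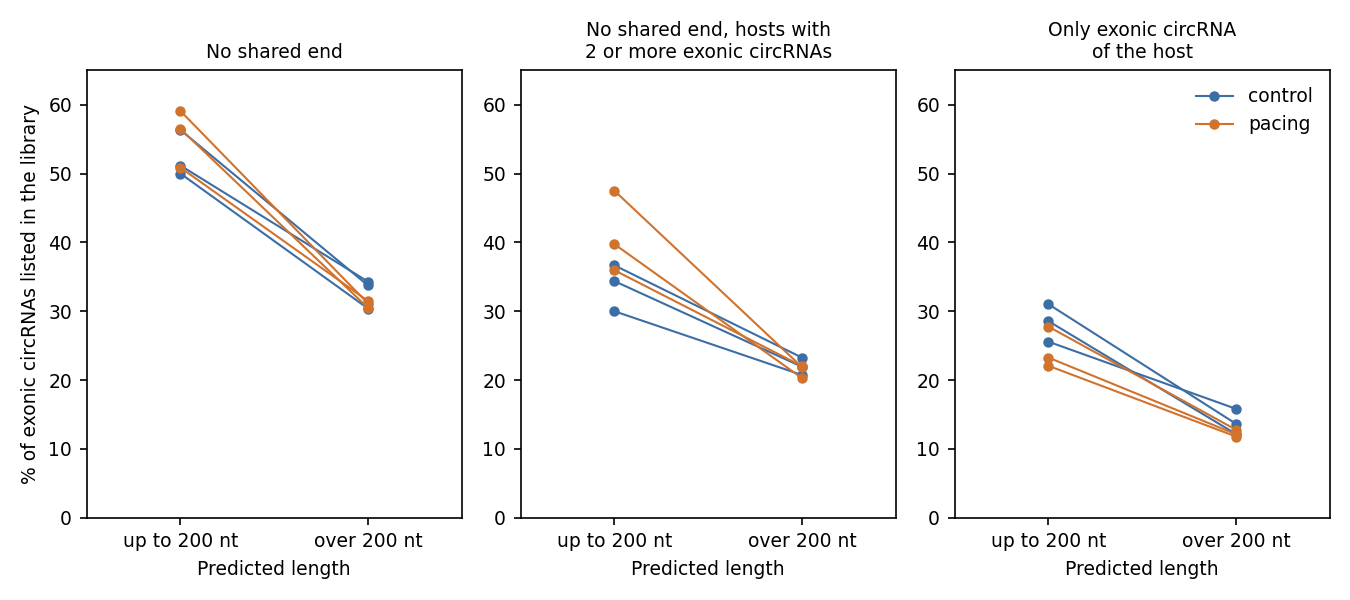
Percent of listed exonic circRNAs (y axis) with no shared end, with no shared end in hosts with 2 or more exonic circRNAs, and alone on their host, for lengths up to 200 and over 200 nucleotides (x axis). Each line is a library, control in blue and pacing in orange, and all 18 lines fall from the short to the longer circRNAs, for example from a mean of 54.0% to 31.9% for no shared end.

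For 2 other measures the direction was mixed. The median mRNA level of the hosts of listed members was 15.3 ± 4.30 FPKM against 14.8 ± 1.34 FPKM for hosts of longer circRNAs, higher in 3 libraries and lower in 3 (exact paired p = 0.812, adjusted p = 0.812). A length that is a multiple of 3, which keeps the reading frame around the loop, was held by 38.9% ± 6.50 against 37.6% ± 0.954 (exact paired p = 0.656, adjusted p = 0.812). A p that misses the threshold does not show that they are alike. Within its host the median member took 33.3% of the exonic junction reads, against 18.2% for the longer circRNAs. This is a description, since it rests on the reads used in the choice. It also depends on the number of exonic circRNAs per host (median 3 against 4), and a circRNA alone on its host takes 100% by definition. Of the 430, 113 (26.3%) were the only exonic circRNA of the host, against 14.3% of the longer ones. A further 100 of the 430 (23.3%) came from hosts with 2 or more and had the highest reads there or tied for them. Among all the longer circRNAs this held for 22.7%. Both percentages count the circRNAs alone on their host in the total, so they are not shares within hosts with 2 or more.

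The comparison of the groups asked whether pacing changed the part of the circRNA pool held by short circles. Their share of all junction reads was 1.14% in C1, 1.13% in C2 and 1.45% in C4, and 1.13% in P1, 1.07% in P2 and 1.32% in P3. The 95% Wilson interval ran from 1.30% to 1.61% for C4 and from 0.978% to 1.18% for P2. The control mean was 1.24% ± 0.180 and the pacing mean 1.17% ± 0.127 (n = 3 each), and the groups overlapped (ratio 0.946). These shares rest on members chosen by a value of 0 and are given as a description. With C4 counted as pacing the ratio was 1.09 and without C4 it was 1.03, both in the other direction. With the 9 short circRNAs listed in every library put back in, which removes that condition, the ratio was 0.922 (exact permutation test, 2-sided, p = 0.5, n = 3 each). With 3 libraries against 3 this test cannot go below 0.1, so no share could have passed 0.05.

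The share of listed exonic circRNAs that were short was 3.41%, 3.02% and 3.62% in C1, C2 and C4 and 3.38%, 3.09% and 3.82% in P1, P2 and P3. The means were 3.35% ± 0.305 and 3.43% ± 0.365 (n = 3 each), and C2 and P2 were the lowest of their groups. Without the condition on a value of 0 the means were 3.67% ± 0.300 and 3.68% ± 0.354, with a ratio of 1.003 (exact permutation p = 0.9, n = 3 each). Circles within an exon took 0.400%, 0.198% and 0.300% of junction reads in C1, C2 and C4 against 0.228%, 0.256% and 0.232% in P1, P2 and P3 (ratio 0.798). Circles over an intron took 0.942% ± 0.203 and 0.936% ± 0.136 (ratio 0.994, n = 3 each). In every one of these shares the groups overlapped.

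**Figure D5:**
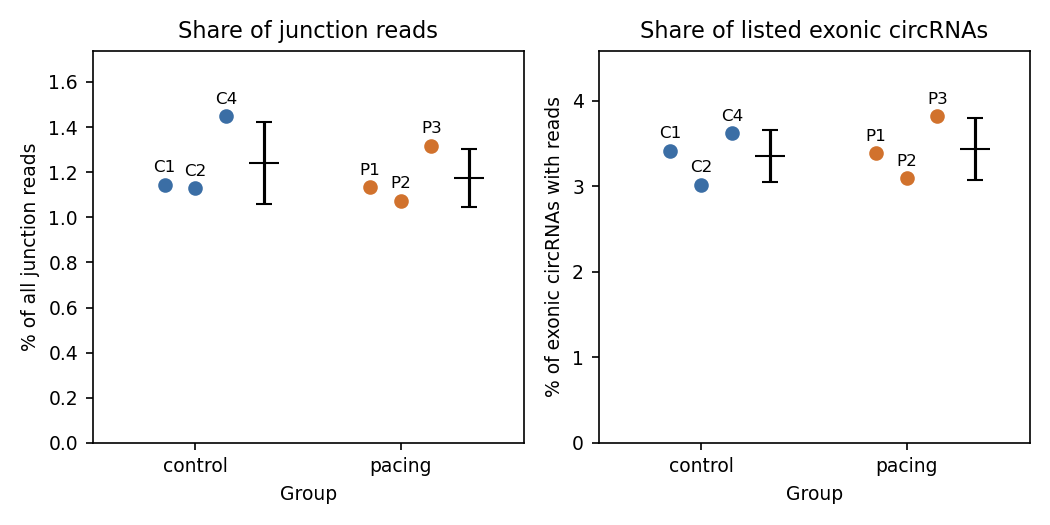
Share of junction reads in short exonic circRNAs (left, percent of all junction reads) and share of listed exonic circRNAs that are short (right, percent), by group. Points are libraries, and bars are the mean ± SD of 3 libraries. In both panels the groups overlap, with C4 at 1.45% and P3 at 3.82% the highest.

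Between the groups 191 members (44.4%) had reads in pacing libraries only, 145 (33.7%) in control libraries only and 94 in both. Among the longer circRNAs the shares were 44.5% and 31.1%. The pacing group held more junction reads. A circRNA was called when its fold change was 2 or more and its unadjusted p 0.05 or less in edgeR fitted on all 15990 circRNAs. By this rule 1 member was higher and 1 lower in the pacing group, or 0.233% each of the 430, against 0.663% higher and 0.356% lower of all circRNAs and 0.692% and 0.346% of the longer exonic ones. After Benjamini-Hochberg adjustment in edgeR 0 members passed, the smallest adjusted p being 0.401, and 2 had an unadjusted p of 0.05 or less. DESeq2 with the same thresholds called 0 higher and 1 lower. The calls rest on the same reads as the choice by a value of 0, so they are given as a description.

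The member called higher was a circle of NEBL, the Z-disc protein nebulette, of 186 nucleotides (chr2:12196509-12198539). It had 0 reads in C1, C2, C4, P1 and P3 and 24 in P2. All of its reads thus came from a single pacing library. Against a floor of 3 reads over the control group it was at least 5.14-fold higher in the pacing group, and its adjusted p in edgeR was 0.401. Without P2 no read was left and the call was lost. A longer NEBL circle with the same start, of 799 nucleotides, had 3, 0 and 6 control reads and 0, 0 and 4 pacing reads. The second NEBL member, of 111 nucleotides within an exon, had 2 reads in C1 only. NEBL mRNA was 209, 99.5 and 276 FPKM in C1, C2 and C4 and 195, 249 and 371 FPKM in P1, P2 and P3, and its log2 difference in log2(FPKM + 1) was 0.55 (SE 0.42, limma adjusted p = 0.892).

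The member called lower was a circle of REV1, a DNA polymerase of translesion synthesis, of 191 nucleotides (chr10:43181237-43182719). It had 10, 4 and 9 reads in C1, C2 and C4 and 0, 2 and 0 reads in P1, P2 and P3. Every pacing library lay below every control library. The log2 fold change was -3.69 (SE 1.44, edgeR adjusted p = 0.401). It passed the call in 10 of 11 alternatives and did not with C4 counted as pacing, where the log2 fold change was -1.47. Its 0 values in P1 and P3 made it a member and also drive the call. The alternatives refit the same reads and are no separate support. Its 3 longer partners with the same start, of 513 to 2355 nucleotides, had 4, 2 and 4 reads each in all. REV1 mRNA was 9.20, 8.47 and 6.88 FPKM in the control and 7.86, 8.28 and 7.85 FPKM in the pacing libraries, with a log2 difference in log2(FPKM + 1) of -0.02 (SE 0.21, limma adjusted p = 0.992).

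Beside REV1, ARHGAP26 had groups that did not overlap in the lower direction, with 2, 2 and 3 reads in C1, C2 and C4 and 0 in each pacing library, at least 3.63-fold lower against a floor of 3 reads over the group (edgeR adjusted p = 0.401). In the higher direction these were NCOA4 (log2 fold change 2.03, SE 1.26, edgeR adjusted p = 0.401) and the circle of RBPMS over an intron (1.78, SE 2.27, adjusted p = 0.537). That makes 2 of 430 (0.465%) each way, against 1.6% higher and 0.188% lower among all circRNAs. The choice required a 0 in at least 1 library of each member, which not all circRNAs have. These shares are therefore not like for like, and their difference is not read as a trait of short circles. Overlap was judged on raw reads, not scaled to the total of each library. Scaled to the totals, the RBPMS circle overlapped, with C1 above P2. These totals were 22987 to 24782 junction reads in the control and 28963 to 41299 in the pacing libraries. Raw reads therefore favour the higher direction, among the members as among all circRNAs.

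Calls moved with single libraries. Without C1 the members called were 2 higher and 2 lower, with MDM4 higher (7, 6 and 3 pacing reads) and IKZF1, a lymphocyte transcription factor, lower, whose 9 reads were all in C2. Without C2 they were 2 higher, with NVL, a nucleolar ATPase, added (0, 2 and 0 control reads and 10, 2 and 2 pacing reads). With C4 counted as pacing they were 3 higher and 2 lower, with USP31 (0, 0 and 6 reads in C1, C2 and C4 and 2, 5 and 10 in P1, P2 and P3) and C5orf22 (0, 0 and 7, and 4, 2 and 6) higher and IKZF1 and BDP1 (8 reads, all in C2) lower. These names were read from the alternatives after their values were seen.

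By host function, 77 members came from hosts in 9 gene lists, and NEBL was the only one of these called. Of all exonic circRNAs with a value of 0, 4.08% were short. In the sarcomere list 8 of 270 were short (2.96%), and after NEBL the highest were MYO9A, an unconventional myosin, with 0, 0 and 2 control reads and 0, 9 and 7 pacing reads, and PDLIM5, a Z-disc protein, with 3 reads each in C2, P2 and P3. Among ion channel and calcium genes 3 of 165 were short (1.82%), namely RYR2, the calcium release channel, with 6 reads in C4, CASQ2, the calcium store protein, with 4 in P2 and TRPM7, an ion channel with a kinase domain, with 2 in C2. Each of these 3 was listed in a single library. A further short circle of RYR2, of 120 nucleotides within an exon (chr4:2907717-2907836), was no member since it had reads in every library, with 12, 2 and 4 in C1, C2 and C4 and 7, 12 and 10 in P1, P2 and P3.

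In the matrix and TGF-beta list 6 of 106 were short (5.66%). TGFBR3, a TGF-beta co-receptor, had 3 reads in C1 and 2 in P2, ADAM22 had 4 in P3 and FBN1, the microfibril protein fibrillin, had 4 in P1. Mitochondrial genes gave 6 of 103 (5.83%), led by the paired subunits of methylcrotonyl-CoA carboxylase. MCCC1 had 4 reads in C4 and 5 in P1, and MCCC2 had 6 in P2 and 2 in P3. PCCA, of propionyl-CoA carboxylase, had 2 in P3. Kinase genes gave 9 of 208 (4.33%), where MAP3K7, the kinase TAK1, had 4 reads in C2 and TAOK3 had 2 each in C2 and P3 beside the MAPK8 circle above.

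The list of ubiquitin genes, which does not hold RFWD2, gave 10 of 311 (3.22%). After UBE2G2 the highest in the list were UBE2R2, another conjugating enzyme, with 2 reads in C1 and 4 in C2, and NEDD4L, a ligase of ion channels, with 2 in C2 and 4 in P3. Chromatin genes gave 8 of 325 (2.46%), with RERE at 4, 0 and 0 control reads and 2, 4 and 3 pacing reads, SETDB2, a histone methyltransferase family member, at 6 in C1 and 2 in P1, and NFIB, a transcription factor, at 2 each in P2 and P3. RNA processing gave 8 of 270 (2.96%), with PAPOLA, a poly(A) polymerase, at 4, 2 and 0 control reads and 0, 2 and 6 pacing reads, followed by QKI and NUP98, a nuclear pore protein. The list of membrane traffic genes, which holds neither ARF4 nor RAB31, gave 19 of 548 (3.47%). After TBC1D15 in this list, ARHGAP10 had 4 reads in C1, 2 in P1 and 11 in P3, and TBC1D22A had 4 in C2 and 2 in C4.

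The mRNA table held 400 of the 401 hosts, and every one of their circRNAs lay within the locus given for its host. The median host mRNA was 13.6 FPKM (quartiles 7.28 and 27.1) against 12.2 FPKM for the 3314 genes that gave only longer circRNAs. Over the hosts, mRNA level and member reads were weakly related (Spearman rho 0.095, a description). Among the 24 hosts over 100 FPKM, RAB31 had a mean of 126 FPKM and 32 reads. Those that follow had 2 reads each, the median of all members. ACTN2, the Z-disc protein alpha-actinin 2, had a mean of 881 FPKM and 2 reads in its short circle, in C4 only. MYH7, the beta-myosin heavy chain, had 614 FPKM and 2 reads, also in C4, and shares sequence with its neighbour MYH6, so the origin of these reads is uncertain. NRAP, a myofibril assembly protein, had 455 FPKM and 2 reads in C4. C4 was also the library with the high ventricular markers, and their part in these reads was not tested. At the low end, 18 hosts were under 1 FPKM, among them BCL2L12, whose circle of 179 nucleotides had 5 reads in C2 and 2, 6 and 2 in P1, P2 and P3.

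Of the 382 hosts with a mean of 1 FPKM or more, 0 passed an adjusted p of 0.05 in limma between the groups (smallest adjusted p = 0.879), where 0.0259% of all mRNAs tested did. At an unadjusted p under 0.05 there were 10 higher and 9 lower, 4.97% of the 382 against 5.54% of all mRNAs. No host of the 10 most read members passed the adjusted threshold, which does not show that their levels were alike. ARF4 mRNA was 44.9, 41.3 and 42.0 FPKM in the control and 35.9, 34.8 and 35.3 FPKM in the pacing libraries, so the groups did not overlap, with a log2 difference in log2(FPKM + 1) of -0.27 (SE 0.17, limma adjusted p = 0.892). RAB31 mRNA was 96.7, 135 and 108 FPKM against 158, 127 and 129 FPKM, with a log2 difference of 0.29 (SE 0.21, adjusted p = 0.892). The mRNAs of MTUS2, NCOA4, RFWD2, EIF4EBP3, TRNAU1AP, TP53BP2, TBC1D15 and SLC35D2 had log2 differences from -0.37 (EIF4EBP3) to 0.09 (TRNAU1AP), with adjusted p of 0.892 or more in limma.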

How the data were processed

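Total RNA of the atria, depleted of ribosomal RNA, was sequenced in 6 libraries. The authors trimmed reads with cutadapt 1.9.3, used Bowtie2 for alignment to canFam3, and detected circRNAs by find_circ with Ensembl transcripts. The deposited counts are raw reads across each back-splice junction, and the deposited FPKM values of mRNAs come from HISAT2, Cufflinks and Cuffdiff, whose options are not given in the sources used here. The predicted length is the deposited annotation. A read that crosses the junction of a circle shorter than the read passes the same bases again, and how such reads were aligned is not given.

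Columns were grouped by name (C as control, P as pacing), and 12 further per-sample columns of normalized or scaled values in these 2 tables were not analysed. lncRNA and miRNA tables were not used. The members and the gene lists were chosen with earlier results of these data known.

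The quasi-likelihood test of edgeR 4.0.16 (2-sided, TMM factors, no filter) was fitted to all circRNAs, which were called at a fold change of 2 and an unadjusted p of 0.05, the thresholds of the study, and limma 3.58.1 (with trend) was fitted to log2(FPKM + 1) of mRNAs whose mean reached 1 FPKM. Benjamini-Hochberg values cover all features tested. No pairing or batch was stated. The study describes separate dogs but the labels tie no library to a dog, so p-values measure only the spread between these libraries, which may be technical. Shares were tested by exact permutation with scipy 1.17.1 without the condition on a value of 0, and circRNAs within libraries by exact paired permutation. The code was tested on simulated data. For circRNAs, changes were put only into those with a mean of 5 or more reads, which 8 of the 430 members reached. The simulation therefore says little about calls on the other members. DESeq2 1.42.0, other scalings, filters, pseudocounts and member definitions and each library left out were alternatives. The thinning of libraries and the split into circles within an exon and over introns were added after the data were seen.

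Named genes were the 10 members with the most reads, called members, the 3 shortest, those at the limits of the choice, the 6 hosts with the most members (ties by reads), 3 members per list by reads, and the host mRNAs of the most read and called members. Others (DLC1, BICC1, BCL2L12, ARHGAP26, NRAP, the RYR2 circle outside the choice and those of the alternatives) were chosen after their values were seen.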

Additional observations from a re-analysis of the deposited data

How the results depend on the processing

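Without each library in turn the members called were 0 to 2 higher and 1 to 2 lower. DESeq2 called 0 higher, and the filter filterByExpr kept 278 circRNAs and 0 of the 430, so it gave no value. With C4 counted as pacing 3 were higher and 2 lower, and with a length limit of 150 nucleotides 0 and 0. NEBL passed in 9 of 11 alternatives and did not with DESeq2 or without P2. All of its reads were in P2, so leaving out any other library tested this call little. REV1 passed in 10 of 11, failing with C4 counted as pacing. For both circRNAs the alternatives refit reads that the choice had used. The pacing to control ratio of the share of reads was 0.816 with a limit of 150 nucleotides and 1.09 with C4 counted as pacing, and that of the share of listed circRNAs was 0.914 with a limit of 150. Without each library in turn these ratios ran from 0.889 to 1.03 and from 0.967 to 1.08, and thinning to the smallest total gave 0.935 for the listed share. No host mRNA passed the adjusted limma threshold in any of 9 alternatives, with 8 to 41 at an unadjusted p under 0.05. The cause of these shifts was not tested. No paired analysis was possible because the sample titles share no number between the groups and nothing ties the columns that do (C1 and P1, C2 and P2) to a dog or batch.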
